A study of Rattus norvegicus with 12 samples.

Results

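Kidney cortex of male Fisher 344 rats given 600 mg/kg cephaloridine was compared with that of rats given 150 mg/kg. The animals were 8 weeks old, had received the drug once, intravenously in saline, and were killed 24 h later. Samples were chosen by their dose label alone, which gave 6 of the 12 arrays of the series, 3 animals at 600 mg/kg (high) and 3 at 150 mg/kg (low), with 1 array per animal. The other 6 arrays came from 3 rats given 300 mg/kg (middle) and 3 given saline (control, 0 mg/kg). Both groups compared had therefore received the drug, and a gene that moved as far at 150 as at 600 mg/kg shows no difference here. The labels name no transgene or deletion. The series was designed around doses below and at toxicity, and its text does not say which of the 3 doses is which.

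Cephaloridine is a cephalosporin antibiotic that is carried from the blood into proximal tubule cells by organic anion transporters and leaves these cells poorly, so it accumulates in the cortex, where its known target of injury is the proximal tubule. Cells with damaged proteins switch on chaperones through heat shock factor HSF1, and cells under oxidant or electrophile load switch on antioxidant and conjugating enzymes through NRF2. After tubular injury, surviving epithelial cells lose part of their transport programme and re-enter the cell cycle.

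Each value below is a log2 spot signal after subtraction of that array's 75th percentile, so 0 marks a probe as bright as the 75th percentile, and a difference of 1 is a factor of 2. Values of different genes come from different probes and are not compared with each other. Array medians lay between 65.1 and 74.8 intensity units, 60.0% to 63.9% of spots were well above background, and no spot was saturated. A gene was tested where its probe was clearly brighter than background in each animal of the high or the low group, which left 20513 genes or transcripts, of which 11603 had a symbol in the reference table. Kidney markers were bright: uromodulin (Umod), of the thick ascending limb, lay at 8.29, 8.26 and 8.34 on the high arrays and at 8.33, 8.22 and 8.24 on the low arrays. On the leading principal component, which held 41.3% of the variance, the 3 high arrays scored 30.5 to 34.9 and the other 9 arrays -18.4 to -2.81. The high arrays shared slide 4 with 1 middle array, and the low arrays lay on slides 1, 2 and 3, so no slide held both groups. A value with slide as a block therefore runs through the middle arrays: the high arrays minus middle 3, plus the average of 2 steps, from low 2 to middle 1 and from low 3 to middle 2.

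With limma, 4563 genes (22.2% of those tested) differed between 600 and 150 mg/kg at a Benjamini-Hochberg adjusted p under 0.05. Of these, 2373 (11.6%) were higher at 600 mg/kg and 2190 (10.7%) were lower. Most differences were small, with a median absolute log2 difference of 0.34 among the called genes. At least a 2-fold change was seen in 270 called genes (1.32%), 243 of them higher (1.18%) and 27 lower (0.132%). Of the 243, 52 were well above background on no low array, and 3 of the 27 on no high array. Such genes entered the test only through the group where they are high, so their difference is a bound and no p is given for it. The 3 high arrays lay wholly above the 3 low arrays in 4882 genes (23.8%) and wholly below them in 5113 (24.9%). A rank or permutation test of 3 against 3 animals cannot give a p below 0.1, so the calls rest on the spread pooled over genes and over 9 arrays.

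The slide block left 393 genes past the threshold (1.92%) on the 9 dosed arrays and 1383 (6.74%) on all 12, and 297 of the 393 were also called without it. The sign was kept by 4533 of the 4563 genes (99.3%). Of the 270 genes with at least a 2-fold change, 270 kept their sign, 259 kept at least 0.5 of the log2 difference, and 158 stayed past the threshold. The block left 3 residual degrees of freedom in place of 6 and raised the median standard error from 0.0773 to 0.124. Counts given below as kept refer to this block. Of the chaperone, redox and conjugation genes described, it kept the calls of Hspa1a, Hspa1b, Hsph1, Hmox1, Srxn1, Nqo1, Abcc2, Ugt2b7, Tfrc and Ptgr1. Of the injury, inflammation and stress genes it kept Gpnmb, Timp1, Sele, Cxcl10, Cxcl13, Fgb, Fgg, Apcs, Adgre1, Mmp3, Fosl1, Chac1, Mthfd2, Trib3 and Asns. Of the tubular and lipid genes it kept Slc34a1, Slc22a2, Slc10a2, Cyp2c11, Cyp24a1, Decr2, Angptl4, Apoa4 and Mpv17l. The replication and mitotic genes named below were kept except Uhrf1 and Ccnb1, and the other calls named below were lost. Of the kept genes, Hspa1b, Sele, Mmp3, Fosl1 and Clspn were well above background on no low array, Chac1 on 1 and Fgg on 2. These genes entered the test only through the high group, so no weight is put on their kept calls. The 158 include such genes.

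**Figure D1:**
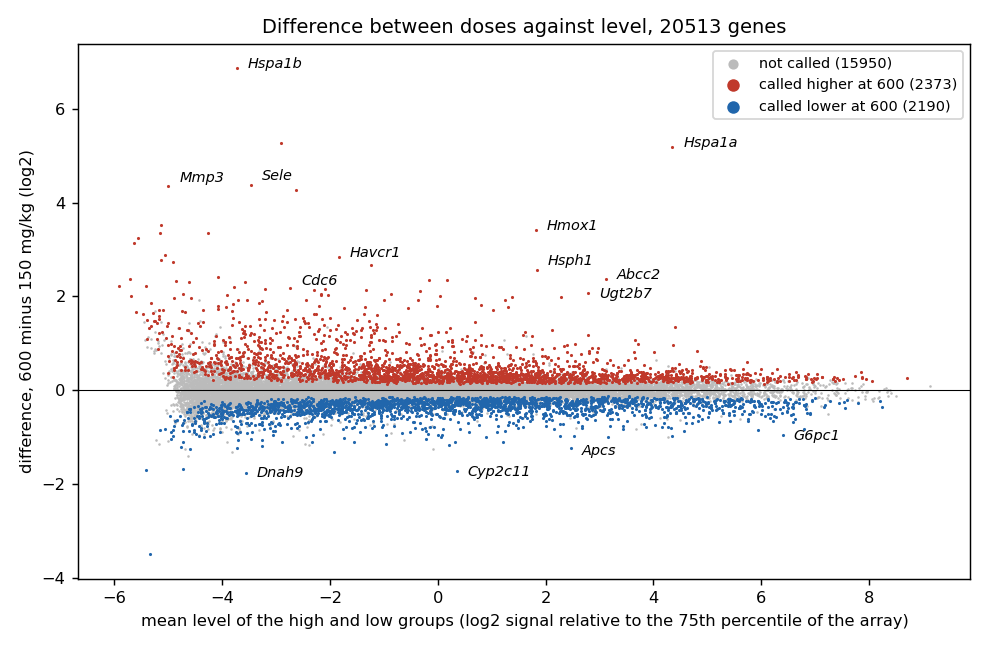
Log2 difference between 600 and 150 mg/kg (vertical axis) against the mean log2 signal of both groups relative to the array's 75th percentile (horizontal axis), 1 point per gene for 20513 genes. Grey points did not pass an adjusted p of 0.05 with limma, the 2373 red points were higher and the 2190 blue points lower at 600 mg/kg. The points that stand farthest from 0 are mostly rises, led by Hspa1b and Hspa1a.

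Among heat shock genes Hspa1a, Hspa1b and Hsph1 rose most. Hspa1a and Hspa1b, the inducible 70 kDa chaperones, refold denatured protein. Hspa1a lay at 7.07, 6.79 and 6.98 on the high arrays, at 1.23, 2.44 and 1.61 on the low arrays, at 1.66, 1.0 and 1.28 on the middle arrays and at a mean of 1.23 in the controls. Only the 600 mg/kg animals stood apart, and middle 3, on the slide of the high arrays, lay with the other groups. The difference was 5.19 ± 0.29 (log2 ± SE, 3 animals per group), a 36.5-fold rise with an adjusted p of 4.18e-05, and it remained at 4.97 with slide as a block. Hspa1b was well above background on the 3 high arrays and on none of the other arrays used here, so its rise is given as at least 25.2-fold. This bound sets the mean of the high arrays against the lowest signal counted as well above background on each low array. The genes are near-identical copies and each probe may read both.

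Hsph1, a nucleotide exchange factor of these chaperones, lay at 3.20, 2.93 and 3.24 at 600 mg/kg and at 0.49, 0.72 and 0.46 at 150 mg/kg, without overlap. It rose 5.93-fold (2.57 ± 0.14, adjusted p 3.51e-05). Bag3, its fellow co-chaperone, rose by 0.85 (adjusted p 0.000249), the small chaperone Hspb1 by 0.71 and Hsp90aa1 by 0.61. Dnajb1, which delivers clients to the 70 kDa chaperones, rose by 0.55 (adjusted p 0.00523). The constitutive relative Hspa8 did not pass the test (-0.05 ± 0.06, adjusted p 0.602), and the mitochondrial Hspd1 rose by 0.26. Of 31 heat shock genes tested, 16 rose, 1 (Hspa4) fell and 14 did not pass. The call of Hspa4 was lost without low 1, low 2, middle 1 or any high array, and its other probe read 0.12. The median log2 difference was 0.22, against -0.01 over all genes tested. With slide as a block 3 of the 16 were called, namely Hspa1a, Hspa1b and Hsph1.

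Promoters of the heat shock list were read for the binding pattern of HSF1, because members of the list moved by very different amounts. In windows from 250 bases before to 50 bases after the start, a run of 3 alternating units (GAA, TTC, GAA, or TTC, GAA, TTC on the other strand), each pair with 2 free bases between, was present in 0.798% of 33469 RefSeq promoters and in 0.467% of the 9417 promoters that matched a tested gene. It was present in 7 of 25 promoters of the heat shock list (28%). Of these 7 genes, Hsph1, Dnaja1 and Hspd1 rose and Hspa8, Hspe1, Chordc1 and Serpinh1 did not pass the test. The 250 bases before the start are shown for Hsph1, which rose, and for Hspa8, which did not pass (RefSeq, GRCr8, 5′ to 3′ on the gene's strand). Capitals mark the matches, which begin 36 bases before the start in Hsph1 and 213 and 55 bases before it in Hspa8. Hsph1 is at chr12:10427118-10427367 on the + strand and Hspa8 at chr8:50080264-50080513 on the + strand.
Hsph1: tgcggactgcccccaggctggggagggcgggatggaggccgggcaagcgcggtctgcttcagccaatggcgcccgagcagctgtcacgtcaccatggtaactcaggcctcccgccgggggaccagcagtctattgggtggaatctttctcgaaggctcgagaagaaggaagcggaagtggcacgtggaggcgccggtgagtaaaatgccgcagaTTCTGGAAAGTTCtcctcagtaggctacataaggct
Hspa8: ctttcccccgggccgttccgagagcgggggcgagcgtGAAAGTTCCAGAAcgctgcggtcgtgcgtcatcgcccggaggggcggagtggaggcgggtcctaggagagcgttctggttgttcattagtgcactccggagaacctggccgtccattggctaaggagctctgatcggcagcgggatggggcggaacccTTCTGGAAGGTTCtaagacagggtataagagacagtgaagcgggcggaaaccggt
The pattern was thus present in genes with and without a rise. The window of Hspa1a held no match to these letters. Only 1 RefSeq start per gene was read for the list, so a match at another start or outside the window would be missed.

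**Figure D2:**
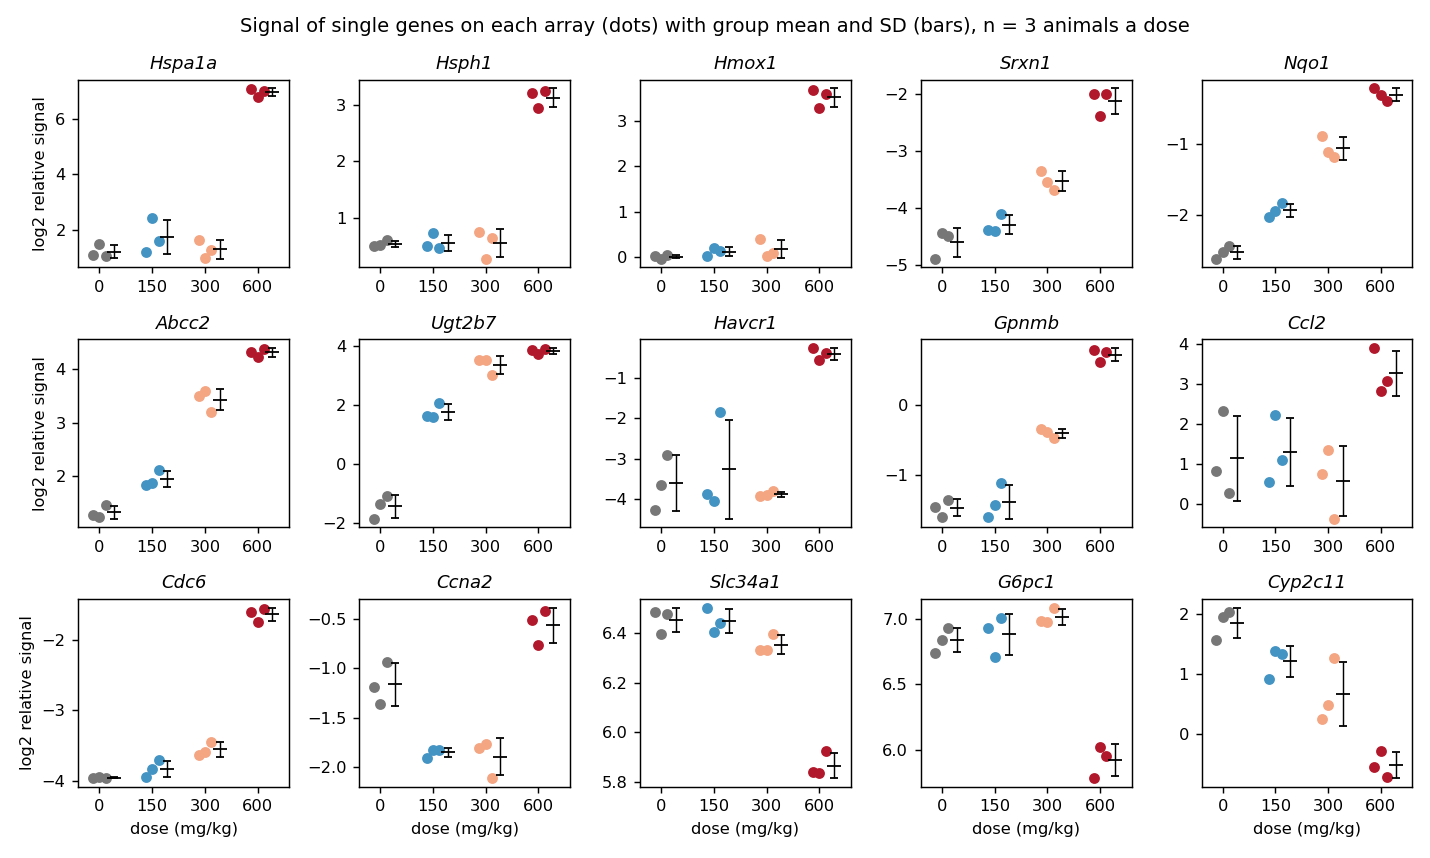
Log2 signal relative to the array's 75th percentile (vertical axis) by dose of cephaloridine in mg/kg (horizontal axis) for 15 genes. Dots are arrays, 1 animal each, and bars are mean ± SD (n = 3). Hspa1a and Cdc6 were high at 600 mg/kg alone, Abcc2, Nqo1 and Ugt2b7 had already moved at 300 mg/kg, and Slc34a1 and G6pc1 were lowest at 600 mg/kg.

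Several redox enzymes rose at the higher dose, heme oxygenase 1 the most among the glutathione and NRF2 genes tested. Hmox1, which breaks heme down to biliverdin, iron and carbon monoxide, lay at 3.68, 3.29 and 3.59 on the high arrays and at 0.02, 0.21 and 0.12 on the low arrays. It rose 10.6-fold (3.41 ± 0.13, adjusted p 1.25e-05), with the middle arrays at 0.40, 0.02 and 0.09, beside the low ones. Srxn1, which repairs oxidised peroxiredoxins, lay at -1.99, -2.39 and -2.0 against -4.38, -4.41 and -4.10 and rose 4.49-fold (adjusted p 7.55e-05). Another, dim probe of Srxn1, not above background, read -0.60. The quinone reductase Nqo1 lay at -2.02, -1.94 and -1.83 at 150 mg/kg, at -0.89, -1.12 and -1.19 at 300 mg/kg and at -0.22, -0.32 and -0.40 at 600 mg/kg. The groups did not overlap at any dose. Nqo1 rose 3.06-fold from 150 to 600 mg/kg (adjusted p 3.93e-05). The aldo-keto reductase Akr1b8 rose by 1.36 (adjusted p 0.000837).

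The genes of glutathione synthesis and transfer described in this paragraph were not called higher. The subunits of glutamate-cysteine ligase, which sets the rate of glutathione synthesis, did not pass the test (Gclc 0.02 ± 0.10, Gclm 0.28 ± 0.21). The glutathione transferases Gsta3 and Gsta4 fell by 0.32 and 0.29. The call of Gsta4 was lost without high 3, and near-identical transferases may share signal. Aldh1a1, which oxidises aldehydes and retinal, fell by 0.32. Of 39 glutathione and NRF2 genes tested, 13 rose, 4 fell and 22 did not pass, with a median of 0.14, and 5 of the rises were kept. The falls numbered 2 without high 3. The core of the antioxidant response element, TGACNNNGC on either strand, was present in 8 of 31 promoters of the list (25.8%) and in 14.6% of promoters of all genes tested. Of 25 heme and iron genes 4 rose and 2 fell, near the shares over all genes (11.6% and 10.7%), and none fell without high 3. Tfrc, the transferrin receptor, rose by 0.80 (adjusted p 0.00318), and Alas1, the entry enzyme of heme synthesis, rose by 0.45.

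The leading conjugation and efflux genes followed the dose in steps. Abcc2, the apical pump for glucuronide and glutathione conjugates, lay at 4.33, 4.23 and 4.39 at 600 mg/kg, at 3.50, 3.59 and 3.20 at 300 mg/kg and at 1.83, 1.86 and 2.11 at 150 mg/kg. It rose 5.21-fold (2.38 ± 0.11, adjusted p 2.88e-05). Within slides the rise was split between the steps: the high arrays exceeded middle 3 by 1.11, and middle 1 and middle 2 exceeded low 2 and low 3 by 1.64 and 1.48. The glucuronosyltransferase Ugt2b7 lay at 3.87, 3.72 and 3.89 at 600 mg/kg, at 3.52, 3.50 and 3.01 at 300 mg/kg, at 1.61, 1.60 and 2.07 at 150 mg/kg and at a mean of -1.44 in the controls. It was 4.18-fold higher at 600 than at 150 mg/kg (adjusted p 0.000243), while the low dose was already 3.20 above the controls on the log2 scale. Its paralogs are alike in sequence, and the probe may read more than 1 of them. Abcc3, the basolateral pump for similar conjugates, did not pass (0.07 ± 0.06). The sulfotransferase Sult1c2 fell by 0.49. In all, 9 of 23 glucuronidation and efflux genes rose, 1 fell and 13 did not pass. Of the rises 2 were kept.

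Genes of DNA replication rose nearly as a whole at 600 mg/kg. Of 46 S phase genes tested, 42 rose, 1 fell and 3 did not pass, with a median log2 difference of 1.04. The licensing factor Cdc6 lay at -1.61, -1.75 and -1.57 on the high arrays, -3.63, -3.59 and -3.44 on the middle arrays and -3.94, -3.84 and -3.71 on the low arrays. Its rise was 4.54-fold (2.18 ± 0.08, adjusted p 1.25e-05). Ccne1, the cyclin that starts S phase, lay at 1.25, 0.76 and 1.04 against -1.49, -1.29 and -1.20 and rose 5.08-fold (adjusted p 4.55e-05). Cdt1, partner of Cdc6, rose by 2.13 and the transcription factor E2f1 by 1.96. The helicase subunits rose together: Mcm5 by 2.04 ± 0.12, Mcm3 by 1.82, Mcm6 by 1.80 and Mcm2 by 1.17. Pcna, the sliding clamp, rose by 0.82. Clspn, a checkpoint mediator, and Uhrf1, which maintains DNA methylation, were not well above background on any low array, and rose at least 4.5-fold and at least 2.81-fold. With slide as a block 28 of the 42 rises were kept, and each of the 43 called genes had the same sign. Leaving out any of the 9 arrays left 39 to 43 rises.

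Most of the rise of the S phase list lay in the second step of the dose. The list median rose by 0.22 from 150 to 300 mg/kg and by 0.83 from 300 to 600 mg/kg, and stood at -0.04 at 150 mg/kg relative to the controls. Cdt1 was called in the first step too, at 0.61 (adjusted p 0.0387). Relative to the mean of the controls, the median of the list was 0.88, 1.03 and 1.06 on the high arrays and between -0.10 and 0.00 on the low arrays.

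The E2F pattern TTTNNCGC, through which E2F factors bind genes of DNA replication, was searched in the same promoter windows on either strand. It was present in 14 of 35 S phase promoters (40.0%), 8.19% of promoters of tested genes and 4.92% of all promoters. Genes without a match rose as well, among them Ccne1 and Pcna, while Pola1 held a match and did not pass the test. The 250 bases before the start of 3 helicase subunits that rose are shown, with matches in capitals (RefSeq, GRCr8, 5′ to 3′ on the gene's strand). In these bases Mcm5 held 3 matches from 213 to 8 bases before the start, Mcm6 held 2 that overlap, from 139 bases before it, and Mcm2 held 2 that overlap, from 14 bases before it. Mcm5 is at chr19:13488563-13488812 (+), Mcm6 at chr13:42404353-42404602 (-) and Mcm2 at chr4:122918095-122918344 (-).
Mcm5: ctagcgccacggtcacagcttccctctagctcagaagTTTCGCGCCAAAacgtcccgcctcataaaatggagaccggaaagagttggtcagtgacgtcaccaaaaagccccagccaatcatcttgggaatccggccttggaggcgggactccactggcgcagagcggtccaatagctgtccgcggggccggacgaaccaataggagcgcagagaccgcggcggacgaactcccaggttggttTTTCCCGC
Mcm6: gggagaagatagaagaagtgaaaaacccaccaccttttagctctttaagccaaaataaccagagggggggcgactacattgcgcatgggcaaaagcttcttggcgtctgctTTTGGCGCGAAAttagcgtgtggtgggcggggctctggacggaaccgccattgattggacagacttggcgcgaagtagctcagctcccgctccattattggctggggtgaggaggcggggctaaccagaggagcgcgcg
Mcm2: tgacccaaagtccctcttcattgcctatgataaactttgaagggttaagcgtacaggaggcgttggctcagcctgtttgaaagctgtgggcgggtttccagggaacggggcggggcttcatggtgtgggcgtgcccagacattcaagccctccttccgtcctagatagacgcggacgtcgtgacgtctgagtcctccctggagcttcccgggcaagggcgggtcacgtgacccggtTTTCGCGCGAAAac

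Mitotic genes rose too, and at 150 mg/kg their median stood below the controls. Of 43 tested, 36 rose, none fell and 7 did not pass, with a median of 0.75; 23 rises were kept with slide as a block. Ccna2, the cyclin of late S phase and entry into mitosis, lay at -0.51, -0.76 and -0.41 on the high arrays, -1.91, -1.83 and -1.83 on the low arrays and -1.81, -1.77 and -2.12 on the middle arrays. Its difference was 1.29 ± 0.11 (adjusted p 0.000321), and the mean of the controls, -1.16, lay between the groups. The proliferation marker Mki67 rose by 1.06 ± 0.13 and topoisomerase Top2a by 1.06 ± 0.14. The kinases Pbk and Ttk rose by 1.38 and 1.33, the midzone protein Prc1 by 0.93 and the mitotic cyclin Ccnb1 by 0.50. The list median at 150 mg/kg was 0.52 below the controls on the log2 scale (-0.52), and at 600 mg/kg it was 0.39 above them. Between 150 and 300 mg/kg the median moved by 0.02 and between 300 and 600 mg/kg by 0.87. Prc1 and Ccnb1 were among the 21 genes (0.102%) that differed between 150 mg/kg and the controls, both lower, at -0.74 and -0.76.

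CCAAT boxes, bound by NF-Y in promoters of mitotic genes, were present on either strand in 29 of 37 promoters of the list (78.4%) and in 38.2% of promoters of tested genes. Ccnb2, Cenpf and Hmmr held boxes and did not pass the test, while Bub1b and Ndc80 held none and rose. The mitotic kinase Cdk1 is shown as an example, with 3 boxes in capitals between 210 and 49 bases before the start (RefSeq, GRCr8, chr20:19265043-19265292, + strand). Cdk1 rose by 1.16 ± 0.14 (adjusted p 0.00158).
Cdk1: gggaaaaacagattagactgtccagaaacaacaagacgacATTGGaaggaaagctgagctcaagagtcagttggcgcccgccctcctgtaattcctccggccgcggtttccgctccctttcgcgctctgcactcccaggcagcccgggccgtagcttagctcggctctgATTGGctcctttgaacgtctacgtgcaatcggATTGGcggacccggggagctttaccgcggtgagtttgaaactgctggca

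**Figure D3:**
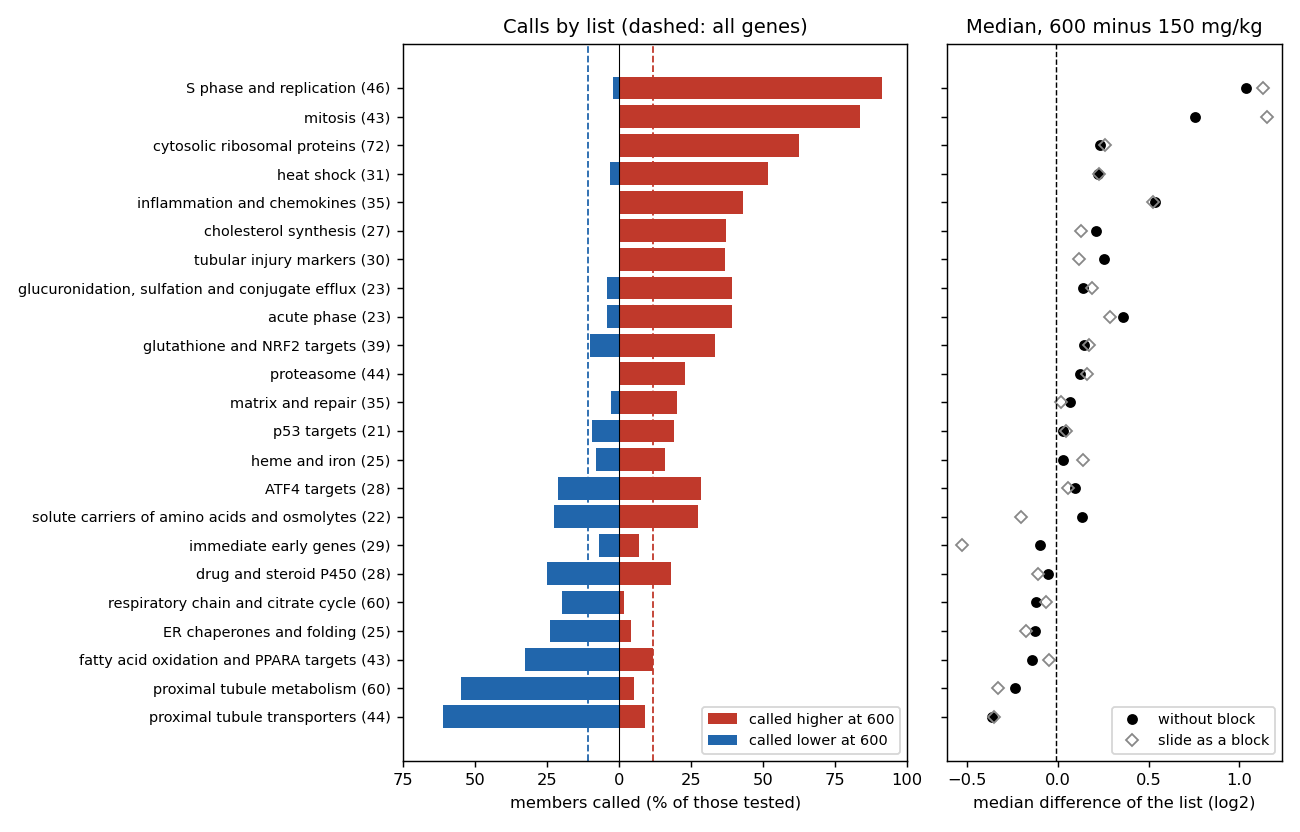
Percent of each list's tested genes called higher or lower at 600 against 150 mg/kg (left), with dashed lines at 11.6% and 10.7% for all genes, and the list's median log2 difference without (black) and with (diamond) slide as a block (right). The S phase and mitosis lists stand highest and the proximal tubule transporter list lowest, while the medians of most other lists lie near 0.

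**Figure D4:**
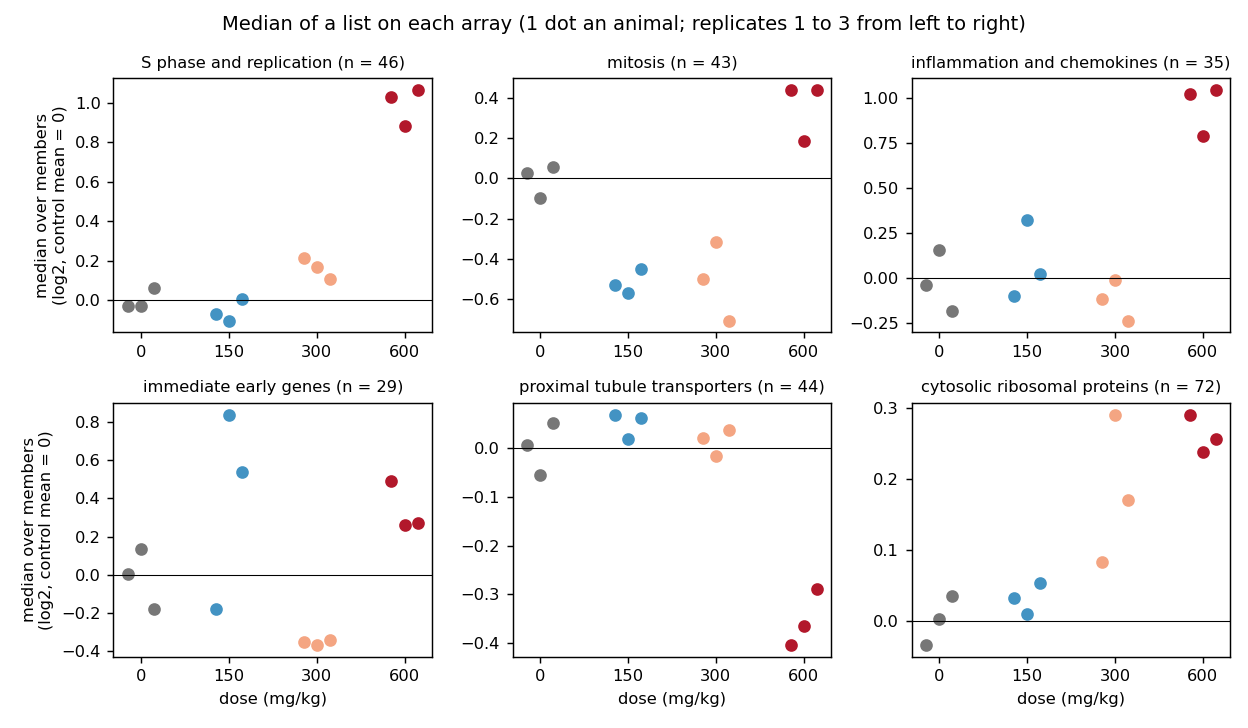
Median log2 level of 6 gene lists on each array relative to the mean of the 3 controls (vertical axis), by dose in mg/kg (horizontal axis), 1 dot per array. Mitotic genes lie below 0 on the low and middle arrays and above 0 on the high arrays, and immediate early genes split the 3 low arrays.

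Some markers of tubular injury rose, and the low animals differed in the best known of them. Havcr1, which encodes kidney injury molecule 1, lay at -0.28, -0.56 and -0.40 on the high arrays and at -3.87, -4.05 and -1.86 on the low arrays. Low 3 stood apart from the other low animals, though still below each high animal. The rise was 7.18-fold (2.84 ± 0.49, adjusted p 0.00602); with slide as a block it was 2.43 with an adjusted p of 0.149. Gpnmb, a glycoprotein of injured epithelium and macrophages, lay at 0.79, 0.62 and 0.76 against -1.60, -1.43 and -1.12 and rose 4.31-fold (adjusted p 3.53e-05). Timp1, an inhibitor of matrix metalloproteinases, rose by 1.17 ± 0.08, and Lgals3, a galactose-binding lectin, by 0.75. Other common injury markers did not pass: Lcn2 at 0.58 ± 0.35, Spp1 at 0.33 ± 0.23 and Clu at 0.11 ± 0.13. Of 30 injury genes tested, 11 rose, none fell and 19 did not pass, with a median of 0.26; 3 rises were kept.

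Adhesion molecules and several chemokines rose at 600 mg/kg. The endothelial adhesion molecule Sele was well above background on the 3 high arrays, at -0.95, -1.44 and -1.45, and on no low array, and rose at least 12.8-fold. Icam1 and Vcam1, which hold leukocytes to the vessel wall, rose by 0.94 and 0.82. Cxcl10 and Cxcl13, which draw T and B cells, rose by 1.98 ± 0.21 and 2.0 ± 0.17. Ccl2, the main monocyte attractant, lay at 3.91, 2.82 and 3.09 on the high arrays and 0.55, 2.23 and 1.09 on the low arrays, with low 2 close to the lowest high array. Its rise was 1.98 ± 0.54 (adjusted p 0.0342), and the adjusted p was 0.0548 to 0.111 when low 1, low 3 or any high array was left out. Ccl3 (1.08 ± 0.56) and Cxcl1 (0.84 ± 0.71) did not pass. Of 35 inflammatory genes 15 rose, none fell and 20 did not pass, with a median of 0.54. The rises numbered 8, 9 and 7 without low 1, high 1 and high 3, and 3 were kept with slide as a block. Most of this lay in the second step: the list median moved by -0.22 from 150 to 300 mg/kg and by 0.93 from 300 to 600 mg/kg.

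Acute phase genes rose in part. The fibrinogen chains Fgb and Fgg, which form the clot and are also made by injured tubules, rose by 1.46 ± 0.12 and 1.46 ± 0.11, and Fga by 0.59. Apcs, serum amyloid P, fell by 1.23 on the log2 scale (SE 0.08, adjusted p 0.000108). Ceruloplasmin (Cp) did not pass at 0.25. In all, 9 of 23 rose and 1 fell, and 2 rises were kept.

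Markers of cells other than the tubule were read beside these groups. Of 15 macrophage markers, 6 rose and none fell, with a summed linear signal (1 equals the array's 75th percentile) of 76.7 to 87.1 on the high arrays and 67.5 to 73.7 on the low arrays. Adgre1, which encodes F4/80, rose by 0.81 ± 0.07 (adjusted p 0.000395). The macrophage count fell to 3 without low 1, low 3, middle 3, high 1 or high 3. Of 11 neutrophil markers, 1 (S100a9) was above background in either group. None of 11 T and natural killer cell markers passed, with summed signals of 2.89 to 3.24 on the high arrays and 2.84 to 2.91 on the low arrays. Of 13 endothelial markers 2 fell (15.4%, near the 10.7% over all genes) and none rose. Their summed signal was 62.5 to 66.1 against 73.7 to 77.4. The endothelial falls numbered 1 to 3 when 1 array was left out. Vwf, the endothelial clotting factor, fell by 0.67. Of 6 red cell markers 3 fell, with a summed signal of 55.6 to 72.2 against 80.6 to 86.2. The falls numbered 0 without low 2, low 3, high 1 or high 3. Of 11 fibroblast and pericyte markers 4 rose and 1 fell, with 1 rise without low 2, low 3 or high 1 and 2 without high 2. Of 5 adipocyte markers 3 rose, of 3 adrenal markers above background 2 rose, and of 9 podocyte markers 1 rose, near the share over all genes. No adipocyte marker was called without low 1 or high 1 (1 without low 2, high 2 or high 3), and no podocyte marker without any of the low or high arrays in turn. The part of these cells in the inflammatory and injury values was not tested.

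Most proximal tubule transporters tested were called lower, though not in each fit with 1 array left out. In whole cortex, fewer cells of a type and less RNA per cell cannot be told apart. Slc34a1, the phosphate carrier of the brush border, lay at 5.84, 5.83 and 5.92 at 600 mg/kg and at 6.50, 6.41 and 6.44 at 150 mg/kg, without overlap. It fell by 0.58 (SE 0.05, adjusted p 0.000279), and its relative Slc34a3 fell by 0.79. Slc22a6 and Slc22a8, the anion carriers through which cephaloridine enters from the blood, fell by 0.54 and 0.67. The organic cation carrier Slc22a2 fell by 0.56, the glucose carrier Slc5a2 by 0.48 and Slc7a7, the basolateral partner of cationic amino acid uptake, by 0.84. The endocytic receptor Lrp2 fell by 0.39, a call lost without low 1, low 3 or any high array. Slc10a2, a bile acid carrier, rose by 0.48, Slc17a3 by 0.34 and Slc22a7 by 0.37. The call of Slc22a7 was lost without low 1, low 2, high 1 or high 2, and the rises of the list then numbered 2. Of 44 transporters 27 fell, 4 rose and 13 did not pass, with a median of -0.36. The falls numbered 19 to 26 when 1 array was left out, with the fewest without low 3. With slide as a block 3 falls and 1 rise were kept.

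The fall was seen on the S1 and S2 marker list too, which shares members with the transporters: 8 of 10 fell, and the summed linear signal was 267 to 295 on the high arrays against 342 to 416 on the low and 356 to 387 on the middle arrays. Of 7 markers of the late, S3 segment 2 rose and 2 fell, with 1 rise without low 1, low 2, high 1 or high 2. Its falls numbered 0 without low 3 or high 1 and 1 without any other array except middle 3. Of 7 thick ascending limb markers 1 rose and none fell, with overlapping sums of 413.5 to 431.6 and 392.1 to 420.8. The collecting duct water channel Aqp2 did not pass at 0.14 ± 0.06, nor did Umod at 0.03 ± 0.05.

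Metabolic enzymes of the proximal tubule were called lower in most cases as well, though again not in each fit with 1 array left out. G6pc1, the last step of glucose release, lay at 5.78, 6.02 and 5.95 at 600 mg/kg and 6.93, 6.71 and 7.01 at 150 mg/kg. It fell by 0.96 (SE 0.09, adjusted p 0.00045; 0.0559 with slide as a block). Pck1, the entry step of gluconeogenesis, fell by 0.68, the glycine decarboxylase Gldc by 0.90 and Miox, which opens inositol, by 0.65. Folh1, a carboxypeptidase of the brush border, fell by 1.17. The steroid hydroxylase Cyp2c11 lay at -0.55, -0.28 and -0.71 at 600 mg/kg, at 0.25, 0.49 and 1.27 at 300 mg/kg and at 0.92, 1.38 and 1.34 at 150 mg/kg, and was 3.31-fold lower at 600 than at 150 mg/kg (adjusted p 0.00321). Related P450s may share its probe. Of 60 metabolic genes 33 fell, 3 rose and 24 did not pass, with a median of -0.24. The falls numbered 24 to 34 when 1 array was left out, with the fewest without low 1. Of the calls of the main fit 2 were kept, 1 fall and 1 rise.

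The enzyme that degrades active vitamin D went against this. Cyp24a1, the 24-hydroxylase, lay at 1.13, 1.31 and 1.61 on the high arrays, -1.54, -2.0 and -3.48 on the middle arrays, -0.92, -1.09 and -0.98 on the low arrays and at a mean of -0.52 in the controls. It was therefore lowest at the middle dose, with a wide spread there, and highest at 600 mg/kg. It rose 5.07-fold (2.34 ± 0.42, adjusted p 0.00714). The block, which runs through the middle arrays, gave 4.10. Cyp27b1, which makes active vitamin D, did not pass at -0.37 ± 0.14 (adjusted p 0.101) and passed with slide as a block at -0.88 (adjusted p 0.0473).

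Fatty acid genes fell more often than they rose. The peroxisomal enzymes Decr2 and Ehhadh fell by 0.76 and 0.59. Angptl4, a lipase inhibitor, and Apoa4, a lipoprotein component, rose by 2.14 ± 0.19 and 2.05 ± 0.11. Of 43 genes 14 fell (32.6%), 5 rose (11.6%) and 24 did not pass, with a median of -0.14. Over all genes 10.7% were lower and 11.6% higher, so the rises lay at the share over all genes. The falls numbered 8 without low 1 and 8 without low 3. Among cholesterol genes 10 of 27 rose and none fell, and none of the rises was kept with slide as a block. The late enzyme Dhcr7 rose by 0.60 ± 0.09. The cholesterol rises numbered 5 without high 2 and 6 without low 1, high 1 or high 3.

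Targets of ATF4, the factor of the integrated stress response, moved in both directions. Chac1, which degrades glutathione, rose by 2.42 ± 0.20, though a second, dim probe read -1.52. The probe used was itself well above background on 3 high arrays and only 1 low array, so the size of this rise is uncertain. The folate enzyme Mthfd2 lay at -1.94, -1.89 and -1.86 against -3.47, -3.39 and -3.38 and rose by 1.52 ± 0.07 (adjusted p 2.4e-05). The pseudokinase Trib3 rose by 1.47 and asparagine synthetase (Asns) by 1.24, while the serine synthesis enzymes Phgdh and Psat1 fell by 0.51 and 0.47. Atf3, a stress-induced repressor, did not pass at 1.16 ± 0.40, with the low arrays spread over -0.05, 1.54 and 1.70. Of 28 genes 8 rose (28.6%, Chac1 among them) and 6 fell (21.4%), against 11.6% higher and 10.7% lower over all genes. The falls numbered 3 without low 1, low 3 or high 1. Among chaperones and folding enzymes of the endoplasmic reticulum, 1 of 25 (the oxidase Ero1a) rose and 6 fell, 4% and 24% beside the same shares over all genes. The falls included Hspa5 at -0.34 and Calr at -0.30, and numbered 2 without low 2 or high 1 and 3 without high 2 or high 3. Among 21 p53 targets 4 rose and 2 fell, near the shares over all genes, and none fell without low 3. Cdkn1a, the cell cycle inhibitor, rose by 0.77 (adjusted p 0.0353), a call lost without low 1, middle 1, high 2 or high 3. The rises numbered 2 without low 1, middle 1 or high 3.

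Immediate early genes, which respond within minutes of a stimulus, separated the low animals from each other rather than the doses. Fos lay at -2.68, 2.12 and 2.16 on the low arrays, -0.66, -0.38 and -1.11 on the high arrays and -2.87, -1.89 and -2.97 on the middle arrays. Low 2 and low 3 were the highest of the 9 dosed animals and low 1 lay with the middle group. Egr1 lay at 0.00, 3.12 and 3.1 on the low arrays and 1.69, 1.62 and 1.41 on the high arrays. The difference was not called for either gene (-1.25 ± 1.15 and -0.50 ± 0.73). Of 29 genes 2 rose and 2 fell, with a median of -0.10. Without low 1 the list held 12 falls, and 7 with slide as a block, a fit in which low 1 has no weight. With low 1 as the lone low animal, an alternative chosen after seeing the data, the list held 12 rises and a median of 0.53. The direction of the list thus turned with the low animals that entered.

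Among matrix genes, 7 of 35 rose (20%) and 1 (Timp3) fell (2.9%), against 11.6% higher and 10.7% lower over all genes. The 7 include Mmp3, which entered the test only through the high group. Mmp3, a stromelysin, was not well above background on any low array and rose at least 4.38-fold. Mmp12, the elastase of macrophages, rose by 1.54. The rises numbered 4 without low 1, high 1 or high 3. Fosl1, a subunit of the transcription factor AP-1, rose at least 5.16-fold. It was not well above background on the low arrays.

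Ribosomal protein genes shifted by small amounts. Of 72 cytosolic ribosomal protein genes 45 rose and none fell, with a median of 0.23. The high arrays lay wholly above the low arrays in 65 of the 72, against 23.8% of all genes tested. Rps19 rose by 0.46 and was the largest of the list. None of the 45 calls was kept with slide as a block, and the count was 19 to 29 when any low or high array was left out. The list median on single arrays, relative to the controls, was 0.24 to 0.29 at 600 mg/kg, 0.08 to 0.29 at 300 mg/kg and 0.01 to 0.05 at 150 mg/kg. Proteasome subunits rose in 10 of 44 genes and fell in none, and genes of the respiratory chain and citrate cycle fell in 12 of 60 and rose in 1, against 11.6% higher and 10.7% lower over all genes. Neither list kept a call with slide as a block. The proteasome count was 2 to 5 without any of the low or high arrays in turn, and the respiratory falls numbered 2 or 3 without low 1, low 3 or any high array. Of 28 P450s of drug and steroid metabolism 5 rose and 7 fell, and of 22 amino acid and osmolyte carriers 6 rose and 5 fell. The P450 rises numbered 3 without low 1 or high 2, and the falls of carriers 3 without low 3 or high 3. The inositol carrier Slc5a3 rose by 0.97 and the amino acid carriers Slc1a5 and Slc7a5 by 0.69 and 0.69.

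Most of the difference between the doses lay above 300 mg/kg. Between 150 and 300 mg/kg limma called 20 genes (0.0975%), and between 300 and 600 mg/kg it called 3738 (18.2%). Middle animals were more variable, with a median SD of 0.109 per gene against 0.0691 and 0.0721 in the high and low groups. Of the 243 genes that rose at least 2-fold from 150 to 600 mg/kg, 165 were well above background on all 3 low and all 3 high arrays. In these 165 the middle mean lay between the others in 122, and a median of 11.6% of the log2 difference was reached at 300 mg/kg. The share was under 10% in 76 genes, 10% to 50% in 83 and 50% or more in 6. The 20 of the 27 falls that were measured in both groups had a median share of 22.8%.

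Genes that had moved by 300 mg/kg included several of conjugation and lipid transport. Ugt2b7 had reached 76.7% of its difference, Abcc2 62.8%, Apoa4 58.2% and Nqo1 53.6%. The reductase Ptgr1, which inactivates prostaglandins and aldehydes, lay at 3.35, 3.24 and 3.33 at 150 mg/kg, 4.0, 4.17 and 3.95 at 300 mg/kg and 4.08, 3.91 and 4.01 at 600 mg/kg. The middle and high arrays overlapped, and the rise from 150 to 600 mg/kg was 0.69 ± 0.07. Mpv17l, a peroxisomal protein, went down in steps, from 5.07, 5.03 and 4.93 through 4.55, 4.54 and 4.56 to 4.13, 4.13 and 4.16, and fell by 0.87.

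**Figure D5:**
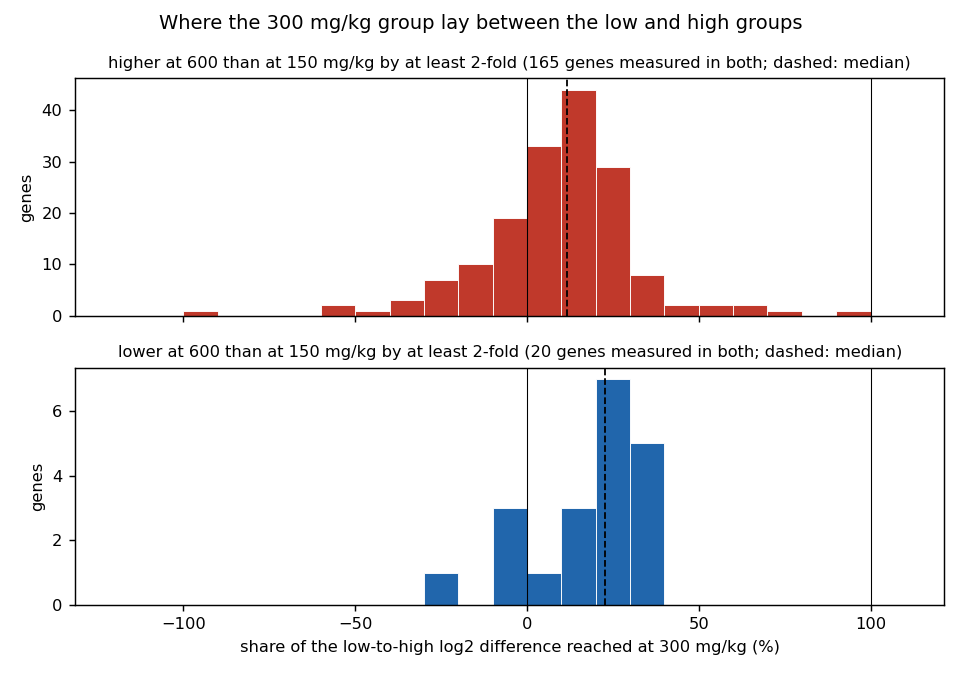
Share of the log2 difference between 150 and 600 mg/kg that was reached at 300 mg/kg (horizontal axis, percent) against the number of genes (vertical axis), for the 165 genes that rose (upper panel) and the 20 that fell (lower panel) at least 2-fold and were well above background on each low and high array. All but 6 of the rises lie below 50%, with a median of 11.6%, against 22.8% for the falls.

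Some genes of conjugation had moved at 150 mg/kg and were not called between the doses. Gstm1, a glutathione transferase, lay at 0.92, 1.37 and 1.63 in the controls, 3.15, 3.39 and 3.24 at 150 mg/kg and 3.42, 3.21 and 3.31 at 600 mg/kg. It was 1.96 above the controls at 150 mg/kg, and its difference between the doses was 0.05 ± 0.09. The glucuronosyltransferase Ugt1a6 was 1.02 above the controls at 150 mg/kg and differed by -0.15 ± 0.12 between the doses. Neither passed the test between 150 and 600 mg/kg, which does not show that the doses act alike on them.

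Among the largest falls were Dnah9, a motor protein of motile cilia, at 3.38-fold lower (-1.76 ± 0.20), and Apcs and Cyp2c11 above. A further 39 genes differed by at least 2-fold without passing the test, 27 higher and 12 lower, among them Atf3, Ccl3 and Fos. In 21 of these 39 the groups did not overlap, against 48.7% of all genes tested.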

How the data were processed

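Total RNA of kidney cortex from 12 rats was hybridised to Agilent 1-colour arrays, 1 per animal. Spot intensities had been background-subtracted and detrended within each array by the authors with Agilent Feature Extraction 9.1.3.1, per the file headers, with no scaling between arrays. The flags for control spots, outliers, saturation and background are the scanner software's, in the deposited files. A deposited value table held the processed signal as a ratio to 1 constant per array, floored at 5. It was used as an alternative, after 40749 probes matched the scanner signal within 0.1%.

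Control spots and outlier-flagged spots (10 to 37 per array) were left out, repeated spots were averaged, log2 signals were shifted by each array's 75th percentile, and the brightest probe stood for each gene. Of 41012 probes, 10735 were named by accession, 5571 by current symbol, 3729 by older symbol and 1217 by gene ID through the RefSeq tables, and 19760 kept the array's name. Genes well above background on all 3 high or all 3 low arrays were tested. A model of 9 arrays (high, middle and low) was fitted with limma 3.58.1 in R 4.3.3, with high minus low as the contrast and Benjamini-Hochberg adjustment over 20513 genes. P-values rest on the spread within the 3 dosed groups, pooled over genes and over the 9 arrays. They take no account of slide except where slide is named as a block. The scripts were tested on simulated data.

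Named genes are the 12 largest rises and the 12 largest falls with groups that do not overlap, the 3 largest rises and falls called in each list, and a fixed set of kidney genes, described where a result turns on them; further genes, and the E2F and CCAAT patterns, were chosen after their values were seen. The comparison and its gene lists were chosen with earlier results of these data known. Promoters are RefSeq windows on GRCr8. No genome build is given for the arrays in the sources used here, and the number of arrays limits the precision. Alternatives covered scaling, background, filter, probe rule, arrays in the fit, slide, scan day and each array left out. The results of some genes are not reported here.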

Additional observations from a re-analysis of the deposited data

How the results depend on the processing

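The main count was 4563 genes, 2373 higher and 2190 lower. It stayed within 1.5 times under quantile normalization, median shift, normexp background, the authors' value table, other probe rules, 12 or 6 arrays in the fit, slide as a random block, scan day as a block and trended moderation. It was 2304 (1312 higher, 992 lower) with no filter over 35500 genes. With a 2-fold change also required, 270 genes passed (243 and 27). Slide as a block gave 393 (295 and 98) on 9 arrays and 1383 (828 and 555) on 12. Array weights gave 6933, with 3527 lower. Leaving out 1 array gave 2524 to 5624 (1385 to 2834 higher, 1139 to 2790 lower), with the fewest without low 1, low 3, high 1 or high 3, and for falls high 2 too. Leaving out low 2 and low 3, chosen after seeing the data, gave 1234 (747 and 487) and takes the lone low animal to vary like the others. Rises made up 52.0% of calls, 60.1% after median shift, 60.6% in the authors' table and 75.1% with slide as a block. Replicate numbers did not pair the animals (correlations -0.0687, 0.00893 and 0.1), and a replicate block gave 3169 (1677 and 1492).

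Signs turned for genes near 0 or not called: Gclc to -0.34 with slide as a fixed block, -0.0229 as a random block and -0.047 without low 1, with 0.0617 without low 2; Spp1 to -0.33 and Aqp2 to -0.0422 with slide as a fixed block; Umod to -0.0308 without low 2 and low 3. Edem1 turned to 0.23 under the mean of probes, where a flagged spot on low 3 changes which probes are averaged. Other causes were not tested.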
